A study of Caenorhabditis elegans with 20 samples.

Results

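The comparison described here set Δmetr-1 animals, which carry the metr-1(ok521) deletion, against wild type animals, both on bacteria with the empty RNAi vector. It used 4 of the 20 whole-animal libraries of the series, 2 per strain, and these 4 were picked by strain and bacterial clone from their labels. Both strains, wild type included, carried the integrated transgene wwIs24, in which the acdh-1 promoter drives GFP beside an unc-119(+) marker. Animals were fed E. coli HT115, the strain used for RNAi feeding, for 48 hours in the presence of 20 nM vitamin B12, and were labelled L4, the last larval stage. The study's general RNA-seq methods give the stage at picking as late L4 to early young adult. The same experiment held 8 further libraries, 2 each of Δmetr-1 and wild type animals on nhr-114 RNAi and of a strain with the metr-1(ww52) point mutation and the nhr-10(tm4695) deletion, here called metr-1(ww52);Δnhr-10, fed either clone. The study's methods call the 2 libraries of a group biological replicates, and each pooled many staged animals of 1 strain. What else differs between the strain backgrounds is not given in the sources used here.

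METR-1 is methionine synthase, which takes a methyl group from 5-methyltetrahydrofolate and gives it to homocysteine to form methionine, with vitamin B12 as its cofactor. Methionine is converted by S-adenosylmethionine (SAM) synthase into SAM, the methyl donor of most methylation reactions, and the demethylated product is returned to homocysteine by S-adenosylhomocysteine hydrolase. This loop is the Met/SAM cycle. The other known use of vitamin B12 in animals is the canonical breakdown of propionate, and C. elegans can also degrade propionate by a shunt that needs no vitamin B12 and begins with the acyl-CoA dehydrogenase ACDH-1.

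Levels are given as CPM, the reads of a gene scaled to a total of 1000000 per library, from sequencing of transcript 3′ ends. The 4 libraries held 8219863 to 13925690 reads, within a range of 2542155 to 16025927 over the 12 libraries of the experiment. Of 39341 genes in the table, the 11543 that reached 5 CPM in 2 or more libraries were tested. A count of 0 allows up to 3 reads, or between 0.215 and 0.365 CPM in the 4 libraries, counting error only. Markers of the tissues of a whole animal were present: all 10 intestinal, 10 body wall muscle, 10 pharyngeal, 12 neuronal and 16 germline markers listed were above 0 in each of the 4 libraries.

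The Δmetr-1 libraries stood apart from each other in genes that mark developmental stage. Summed levels of 14 oocyte genes were 6430 and 890 CPM in Δmetr-1 replicates 1 and 2, against 2829 and 1735 CPM in wild type. The 6 vitellogenins, the yolk proteins of the adult intestine, summed to 3264 and 64 CPM in Δmetr-1, against 520 and 324 CPM in wild type. The 22 molting genes went the other way, with 696 and 10283 CPM in Δmetr-1, against 2281 and 4784 CPM in wild type. Replicate 1 was thus above both wild type libraries, and replicate 2 below both, in oocyte and vitellogenin genes, and the molting genes had the opposite order. Pearson's r across the 11543 genes on the log2 scale was 0.844 between the Δmetr-1 libraries, 0.958 between the wild type libraries and 0.945 to 0.969 within the other groups. In whole animals, fewer cells of a type and less RNA per cell cannot be told apart.

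**Figure D1:**
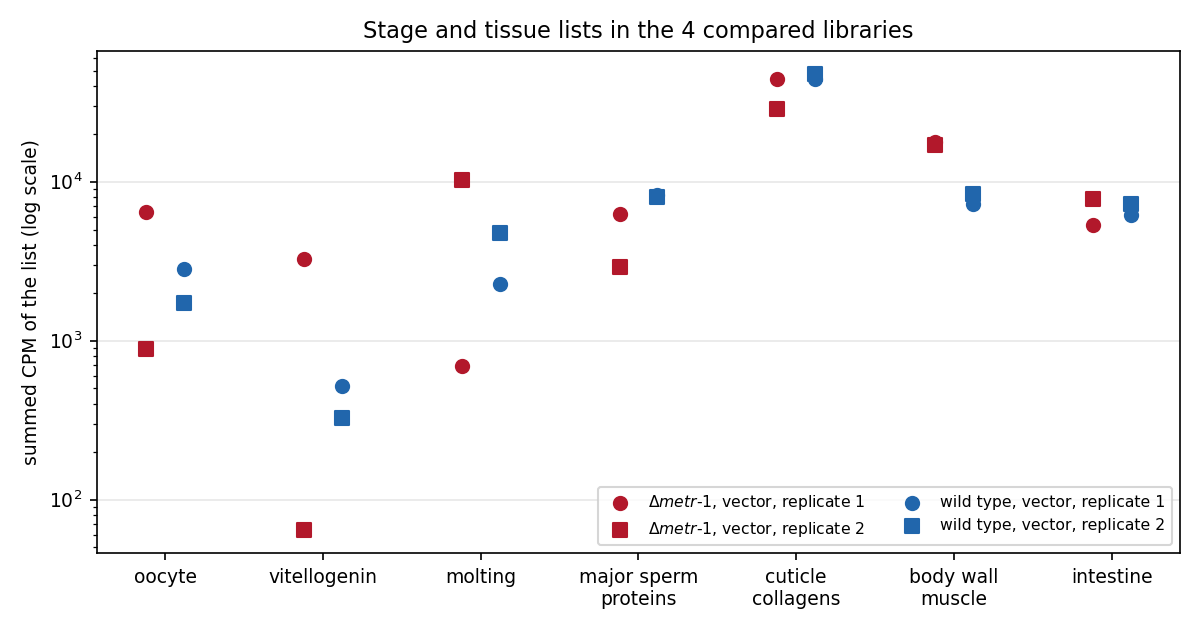
Summed CPM of 7 stage and tissue gene lists (log axis) in the 2 Δmetr-1 libraries (red) and the 2 wild type libraries (blue) on vector, with circles for replicate 1 and squares for replicate 2. The Δmetr-1 libraries lie on opposite sides of both wild type libraries for oocyte, vitellogenin and molting genes, while intestinal sums lie between 5359 and 7818 CPM in all 4.

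Few genes were called between Δmetr-1 and wild type in the main fit, and 5 of the 13 called belong to methionine and vitamin B12 metabolism. With limma across all 12 libraries, 13 genes rose in Δmetr-1 relative to wild type, 0.113% of the genes tested, and none fell (0%). A gene was called where its adjusted p was below 0.01 and it changed by more than 1.5 times. At an adjusted p under 0.05, 42 genes were higher (0.364%) and 14 lower (0.121%), and 972 passed an unadjusted p of 0.05 (8.42%), 516 of them higher and 456 lower. On recovered reads edgeR called 11 higher and none lower, and DESeq2 called 53 higher and 36 lower, so the count depends on the tool. The 13 called genes were msra-1, fog-3, pmp-5, F21C10.9, farl-11, mthf-1, metr-1, DH11.2, clec-47, unc-119, mtrr-1, Y38H6C.21 and C09D4.1. Their log2 changes lay between 2.102 and 5.93. Of the 13, Y38H6C.21 met the filter only through the 2 Δmetr-1 vector libraries, so it was tested only because it was high there. The median log2 change over all genes tested was 0.10.

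The number of calls depended on single libraries. Leaving out wild type vector replicate 1, wild type vector replicate 2 or Δmetr-1 vector replicate 2 left 0 called genes, and leaving out Δmetr-1 vector replicate 1 left 2; the counts of genes higher at an adjusted p under 0.05 were then 13, 10, 39 and 32. Each of these fits left 1 library in an arm, which was assumed to vary like the other groups. The changes themselves kept their direction in every called gene, with log2 changes of 4.82 to 5.30 for fog-3, 3.80 to 3.89 for pmp-5 and 3.34 to 4.05 for F21C10.9, and Y38H6C.21 passed the filter in only 2 of the 4 fits. The molting and oocyte sums above moved with the Δmetr-1 libraries. With the mean log2(CPM + 1) of the tested molting or oocyte genes as a covariate, all 13 genes were still called.

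**Figure D2:**
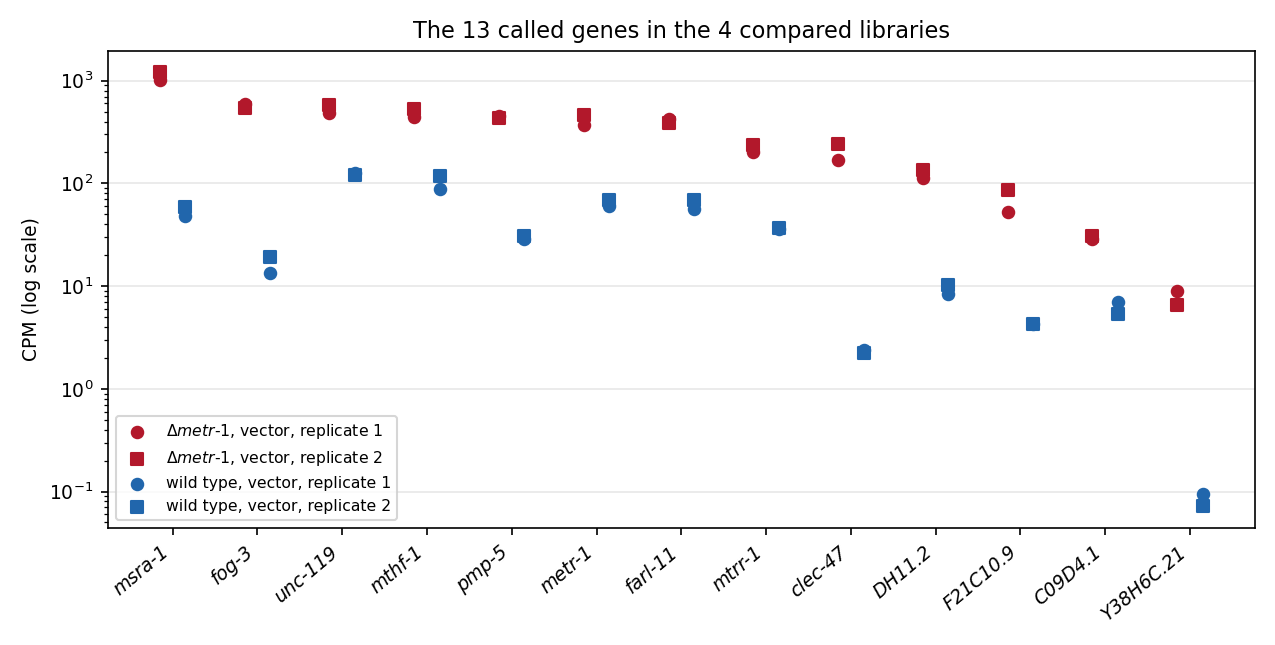
Levels of the 13 called genes in CPM (log axis) in each Δmetr-1 library (red, left) and each wild type library (blue, right) on vector, with circles for replicate 1 and squares for replicate 2. All 13 were higher in both Δmetr-1 libraries than in either wild type library, from msra-1 at over 1000 CPM in Δmetr-1 down to Y38H6C.21, which had 1 read in each wild type library.

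All 6 listed genes of the Met/SAM cycle had both Δmetr-1 libraries above both wild type libraries. The same was true of 17.4% of all genes tested. Of the 6, metr-1, mtrr-1 and mthf-1 were called, ahcy-1 passed at an adjusted p under 0.05, and sams-1 and mel-32 did not pass. The median log2 change of the 6 was 1.86, and it was 1.88 with Δmetr-1 replicate 1 alone and 2.05 with replicate 2 alone, each against the mean of the wild type libraries. The metr-1 gene itself (WBGene00010988, chromosome II, 10926561 to 10931078, plus strand; WBcel235 here and throughout) had 372 and 468 CPM in Δmetr-1, against 59.8 and 69.4 CPM in wild type, a 6.50-fold difference of the means (log2 change 2.68 ± 0.26, SE, n = 2 per group; limma adjusted p = 0.00186). Reads were thus still obtained from the 3′ end of the targeted gene in the deletion strain, at a higher level than in wild type. The extent of the ok521 deletion is not given in the sources used here, so these 3′ reads do not check it.

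The gene mtrr-1 encodes methionine synthase reductase, which restores the active form of the vitamin B12 bound to methionine synthase. It (chromosome II, 9285975 to 9289132, plus strand) had 202 and 236.9 CPM in Δmetr-1, against 36.1 and 37.1 CPM in wild type, with a log2 change of 2.55 ± 0.28 (SE, n = 2 per group; limma adjusted p = 0.00313). The gene mthf-1 encodes methylenetetrahydrofolate reductase, the source of the methyl group that METR-1 transfers. It (chromosome II, 7773904 to 7777823, minus strand) had 441 and 527 CPM in Δmetr-1, against 88.7 and 117 CPM in wild type, with a log2 change of 2.23 ± 0.22 (SE, n = 2 per group; limma adjusted p = 0.00186). The enzyme itself, its reductase and its methyl supplier were therefore all called, at 6.50, 6.004 and 4.71 times the wild type mean.

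The S-adenosylhomocysteine hydrolase gene ahcy-1 was the most abundant of the 6, with 3691 and 5188 CPM in Δmetr-1, against 1401 and 1743 CPM in wild type (log2 change 1.48, limma adjusted p = 0.0125). The SAM synthase gene sams-1 had 643 and 459 CPM in Δmetr-1, against 289 and 142 CPM in wild type. Its log2 change of 1.42 ± 0.36 (SE, n = 2 per group) had a limma adjusted p of 0.236, and its wild type replicates differed by more than the Δmetr-1 ones on the log scale. The serine hydroxymethyltransferase gene mel-32, whose product charges folate with a one-carbon unit, had 213 and 260 CPM in Δmetr-1, against 117 and 108 CPM in wild type (log2 change 1.06, limma adjusted p = 0.345). The other SAM synthase genes, sams-3, sams-4 and sams-5, also had both Δmetr-1 libraries above both wild type libraries, against 17.4% of all genes tested. Their log2 changes were 0.81, 0.93 and 1.0998, and none passed at an adjusted p under 0.05. These SAM synthases are closely related genes, so reads shared between them are uncertain.

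Genes that feed the cycle included the call with the smallest adjusted p. The gene msra-1 (WBGene00018393, chromosome II, 7363220 to 7364040, minus strand) encodes a methionine sulfoxide reductase, which returns oxidized methionine to methionine. It had 1005 and 1203 CPM in Δmetr-1, against 48.4 and 58.5 CPM in wild type, 20.7 times the wild type mean. The log2 change of 4.34 ± 0.31 (SE, n = 2 per group) had the smallest adjusted p of all genes tested (limma adjusted p = 0.000592), and msra-1 was called in 21 of the 25 alternative fits. Its annotated end overlaps that of insc-1, on the opposite strand, by 41 bp; insc-1 was below the filter, and the sources used here do not say whether strand was used in counting.

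The gene pmp-5 (WBGene00004062, chromosome V, 6662191 to 6665813, minus strand) encodes an ABC transporter named as a vitamin B12 transporter by the study. It had 450 and 429 CPM in Δmetr-1, against 28.6 and 30.6 CPM in wild type, 14.8 times the wild type mean (log2 change 3.85 ± 0.33, SE, n = 2 per group; limma adjusted p = 0.00123). The Δmetr-1 libraries, which differed widely in stage markers, gave pmp-5 values within a few percent of their mean. The vitamin B12 processing gene cblc-1 had 24.7 and 52.3 CPM in Δmetr-1, against 12.99 and 8.55 CPM in wild type, and did not pass (limma adjusted p = 0.165). The ABC transporter gene mrp-5, known in C. elegans for export of heme from the intestine, had 138 and 47.1 CPM in Δmetr-1, against 50.4 and 41.5 CPM in wild type, so the strains overlapped.

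The canonical propionate pathway contrasted with these lists. It carries the other vitamin B12-dependent enzyme, methylmalonyl-CoA mutase (MMCM-1), and the median log2 change of its 6 genes was -0.04. The gene mmcm-1 had 115.3 and 91.7 CPM in Δmetr-1, against 85.1 and 86.1 CPM in wild type (log2 change 0.26, limma adjusted p = 0.819), and pcca-1, pccb-1, mce-1 and mmab-1 overlapped between the strains. The exception was mmaa-1, which encodes the protein that loads vitamin B12 onto the mutase. It had 175 and 152 CPM in Δmetr-1, against 56.6 and 40.2 CPM in wild type (log2 change 1.75, limma adjusted p = 0.0183). The called gene farl-11 lies 52 bp from mmaa-1 on the same strand, at 7101218 to 7105035 on chromosome II.

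All 5 genes of the propionate shunt had both Δmetr-1 libraries above both wild type libraries, against 17.4% of all genes tested. Of the 5, acdh-1 and hphd-1 passed at an adjusted p under 0.05, against 0.364% of all genes tested. The gene acdh-1 (WBGene00016943, chromosome I, 6497436 to 6499560, plus strand) had 941 and 949 CPM in Δmetr-1, against 15.4 and 19.5 CPM in wild type, 54.2 times the wild type mean. Its log2 change of 5.69 ± 0.67 (SE, n = 2 per group) had a limma adjusted p of 0.0113, just outside the 0.01 threshold, and it was called in 12 of the 25 alternative fits. The transgene holds the acdh-1 promoter in both strains; what acdh-1 sequence it transcribes is not given in the sources used here.

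The remaining shunt genes had smaller differences. The enoyl-CoA hydratase gene ech-6 had 380 and 631 CPM in Δmetr-1, against 166 and 149 CPM in wild type (log2 change 1.63, limma adjusted p = 0.110). The gene hphd-1, which encodes the dehydrogenase for 3-hydroxypropionate, had 48.1 and 76.9 CPM in Δmetr-1, against 8.60 and 15.8 CPM in wild type (log2 change 2.28, limma adjusted p = 0.0461). The log2 changes of hach-1 and alh-8 were 0.73 and 0.65, with limma adjusted p of 0.446 and 0.435. The difference between the first gene of the shunt and its last was thus 5.69 against 0.65 on the log2 scale.

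**Figure D3:**
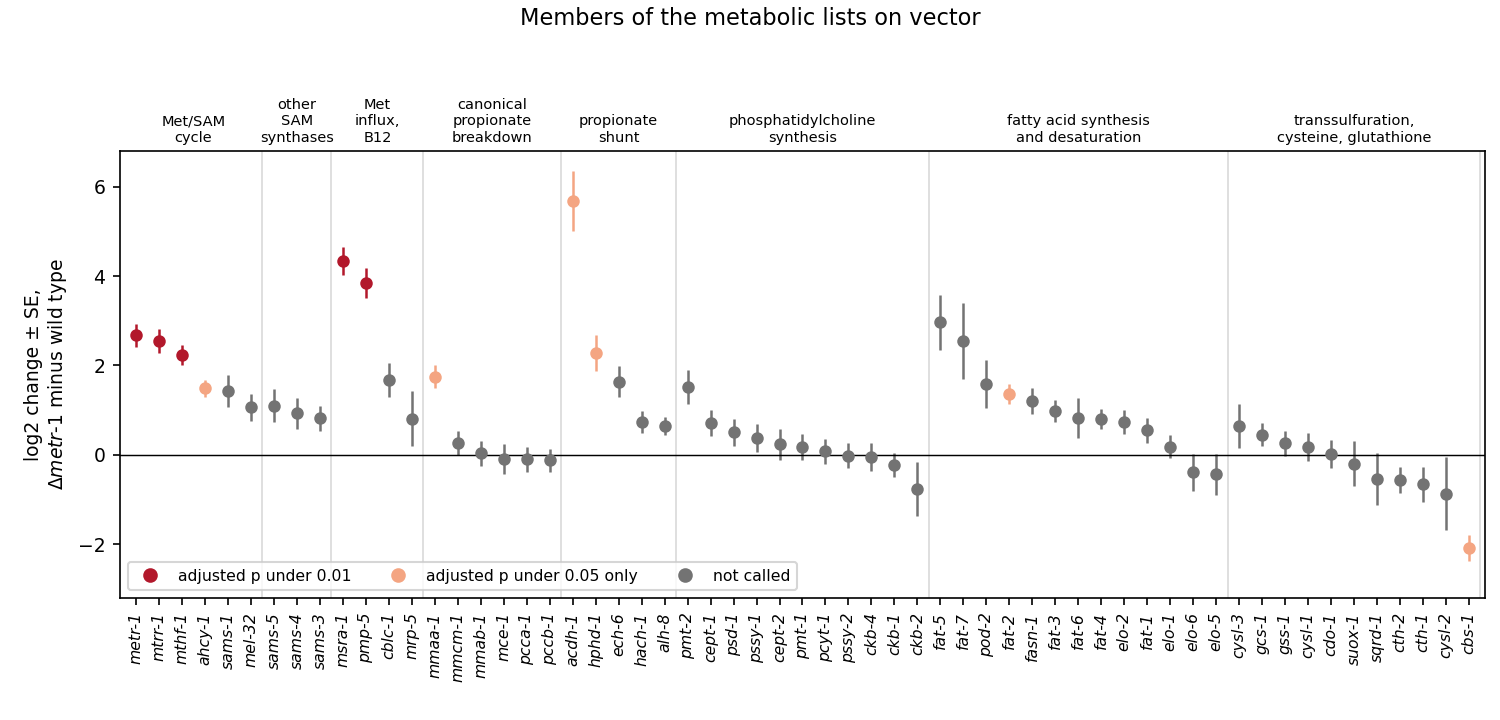
Log2 change of each tested member of 8 metabolic lists, Δmetr-1 minus wild type on vector, on the log2(CPM + 1) scale, with limma standard errors (n = 2 per group). Dark red points were called at an adjusted p under 0.01 and light points passed only at 0.05. All members of the Met/SAM cycle and of the propionate shunt lie above 0, from 0.65 for alh-8 to 5.69 for acdh-1, and cbs-1 is the lowest at -2.098.

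The gene cbs-1 stood out on the exit side of the cycle. It encodes cystathionine beta-synthase, which takes homocysteine out of the Met/SAM cycle into cysteine synthesis. It (WBGene00013866, chromosome X, 10054275 to 10057528, plus strand) had 11.7 and 11.99 CPM in Δmetr-1, against 45.1 and 64.5 CPM in wild type, a log2 change of -2.098 ± 0.29 (SE, n = 2 per group; limma adjusted p = 0.0151). No other gene among the 11 tested of 14 listed for transsulfuration, cysteine and glutathione passed at an adjusted p under 0.05. The cystathionine gamma-lyase genes that act after cbs-1 had smaller differences. The gene cth-2 had 213 and 208 CPM in Δmetr-1, against 300 and 325 CPM in wild type (log2 change -0.57, limma adjusted p = 0.662), and cth-1 overlapped between the strains (log2 change -0.66).

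None of the 10 genes listed for folate metabolism, a list without mthf-1 and mel-32, passed the test in either direction, and their median log2 change was -0.02. The widest values were those of dao-3, a folate-metabolizing dehydrogenase gene, with 36.7 and 175 CPM in Δmetr-1, against 513 and 172 CPM in wild type. Phosphatidylcholine synthesis is the main consumer of SAM in C. elegans, through the phosphoethanolamine methyltransferases PMT-1 and PMT-2. Of the 11 genes tested for that pathway none passed at an adjusted p under 0.05. The highest was pmt-2, with 451 and 490 CPM in Δmetr-1, against 136 and 195 CPM in wild type (log2 change 1.52 ± 0.38, SE, n = 2 per group; limma adjusted p = 0.211), while pmt-1 had 727 and 450 CPM in Δmetr-1, against 485 and 529 CPM in wild type, and overlapped.

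Fatty acid genes lay mostly above wild type. Of 13 genes for synthesis, elongation and desaturation, 10 had both Δmetr-1 libraries above both wild type libraries, against 17.4% of all genes tested. The median log2 change of the 13 was 0.82, and 1 passed at an adjusted p under 0.05. That gene was fat-2, a Δ12 desaturase gene of polyunsaturated fatty acid synthesis, with 431 and 418 CPM in Δmetr-1, against 176 and 154 CPM in wild type (log2 change 1.36, limma adjusted p = 0.0249). The Δ9 desaturase gene fat-5 had 86.0 and 101 CPM in Δmetr-1, against 13.9 and 8.76 CPM in wild type (log2 change 2.97, limma adjusted p = 0.133). The Δ9 desaturase gene fat-7 had 124 and 80.8 CPM in Δmetr-1, against 12.2 and 21.4 CPM in wild type (log2 change 2.55, limma adjusted p = 0.480); it is close in sequence to fat-6, so its reads are uncertain. The fatty acid synthase gene fasn-1 and the acetyl-CoA carboxylase gene pod-2 had log2 changes of 1.21 and 1.58, with limma adjusted p of 0.207 and 0.459. The lipin gene lpin-1, which is in no list and was picked after its values were seen, had 137 and 98.5 CPM in Δmetr-1, against 35.9 and 26.9 CPM in wild type (log2 change 1.87, limma adjusted p = 0.0232).

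Among 12 listed metabolic regulators, nhr-68 was the only one to pass at an adjusted p under 0.05. This nuclear hormone receptor gene is known to work with nhr-10 in the response to propionate. It had 62.8 and 118.6 CPM in Δmetr-1, against 12.2 and 18.5 CPM in wild type (log2 change 2.45, limma adjusted p = 0.0208). The gene nhr-10 had 49.6 and 41.8 CPM in Δmetr-1, against 41.8 and 24.9 CPM in wild type, and did not separate the strains. The gene nhr-114, which the other arm of the experiment targeted by RNAi, had 29.4 and 46.3 CPM in Δmetr-1, against 8.98 and 3.16 CPM in wild type. Both Δmetr-1 libraries were above both wild type libraries, but the log2 change of 2.56 had an SE of 2.58 (limma adjusted p = 0.822). That SE comes from the shared estimate of spread, since replicate 1 on nhr-114 RNAi held 193 CPM in Δmetr-1 and 340 CPM in wild type, while replicate 2 held 7.94 and 2.30 CPM. The nhr-114 level of the replicate 1 libraries thus went against their RNAi label, also in the metr-1(ww52);Δnhr-10 strain on nhr-114 RNAi (391 and 3.60 CPM). The genes msra-1 and cbs-1 did not split the replicates in this way, whereas some other genes also differed widely between them. In Δmetr-1 on nhr-114 RNAi, msra-1 had 47.1 and 47.1 CPM and cbs-1 had 84.7 and 57.7 CPM, but fat-5 had 376 and 1417 CPM. The origin of the replicate 1 nhr-114 reads was not tested. Leaving out the RNAi libraries numbered 1 left 0 called genes on vector and 15 higher at an adjusted p under 0.05.

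The other called genes were not members of the metabolic lists above. The gene fog-3 (WBGene00001483, chromosome I, 10016765 to 10018121, plus strand) encodes a Tob family protein that directs germ cells to become sperm. It had 594 and 547 CPM in Δmetr-1, against 13.5 and 19.2 CPM in wild type, 34.9 times the wild type mean (log2 change 5.06 ± 0.42, SE, n = 2 per group; limma adjusted p = 0.00123). Of 14 tested genes for germ cell sex determination fog-3 was the only one called. Its partner in sperm specification, fog-1, had 43.3 and 17.9 CPM in Δmetr-1, against 13.9 and 13.4 CPM in wild type (log2 change 0.98, limma adjusted p = 0.549). Major sperm protein genes, expressed in sperm, lay on the other side of wild type. All 29 tested major sperm protein genes had log2 changes below 0, from -1.61 to -0.61, none was called, and their sums were 6279 and 2906 CPM in Δmetr-1, against 8227 and 7964 CPM in wild type. The 15 tested spe genes, which act in sperm formation and function, had a median log2 change of -0.15 with none called, and their median was 0.10 with Δmetr-1 replicate 1 alone and -0.45 with replicate 2 alone. None of the 29 major sperm protein genes was above the wild type mean in either Δmetr-1 library. Their median was -0.34 with Δmetr-1 replicate 1 alone and -1.45 with replicate 2 alone. Both Δmetr-1 libraries were below both wild type libraries for 24 of the 29, against 13.8% of all genes tested. The larger fall was in replicate 2, whose molting sum was the highest of the 4 libraries, and the part of stage in it was not tested.

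The gene clec-47 had the largest change of the 13 on the log2(CPM + 1) scale, with 168 and 241 CPM in Δmetr-1, against 2.39 and 2.23 CPM in wild type, 88.5 times the wild type mean (log2 change 5.93 ± 0.59, SE, n = 2 per group; limma adjusted p = 0.00211). It encodes a protein with a C-type lectin domain, and it lies on chromosome V at 15175759 to 15176324. Of 66 C-type lectin genes tested, 32 had log2 changes above 0 and 34 below, with a median of -0.06, and clec-47 and clec-5 were the 2 that passed at an adjusted p under 0.05. The gene clec-5 had 55.6 and 39.5 CPM in Δmetr-1, against 7.45 and 10.99 CPM in wild type. Lysozymes were also mixed. The gene lys-4 had 233 and 492 CPM in Δmetr-1, against 24.7 and 48.5 CPM in wild type (log2 change 3.25, limma adjusted p = 0.0267), whereas lys-2 had 345 and 656 CPM in Δmetr-1, against 1157 and 1065 CPM in wild type (log2 change -1.22, limma adjusted p = 0.485).

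The gene farl-11 encodes a component of the STRIPAK complex, and it had 424 and 384 CPM in Δmetr-1, against 56.3 and 69.7 CPM in wild type (log2 change 2.67, limma adjusted p = 0.00186). The gene DH11.2, for which no role is given here, had 112 and 135 CPM in Δmetr-1, against 8.40 and 10.2 CPM in wild type (log2 change 3.59, limma adjusted p = 0.00186). The gene F21C10.9 had 52.2 and 86.3 CPM in Δmetr-1, against 4.298 and 4.24 CPM in wild type (log2 change 3.69, limma adjusted p = 0.00186). In each of these the lowest Δmetr-1 library was several times the highest wild type library. The last pair of called genes was less certain. The gene C09D4.1, with 28.6 and 30.7 CPM in Δmetr-1, against 7.07 and 5.31 CPM in wild type (log2 change 2.102, limma adjusted p = 0.00861), was called in 8 of 25 alternative fits. The gene Y38H6C.21 had 8.88 and 6.49 CPM in Δmetr-1, against 0.0955 and 0.0718 CPM, a single read per library, in wild type. It was called in 7 of 22 alternative fits, and its fitted change depends on the pseudocount. No other library of the experiment reached 5 CPM, so the call of Y38H6C.21 is no independent support.

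The gene unc-119 (WBGene00006843, chromosome III, 10902641 to 10908935, plus strand) had 487 and 578 CPM in Δmetr-1, against 126 and 120 CPM in wild type (log2 change 2.103 ± 0.22, SE, n = 2 per group; limma adjusted p = 0.00223). UNC-119 is a lipid-binding trafficking factor of neurons, and a rescuing copy of its gene is the marker of the transgene that both strains carry. Reads of the marker and of the endogenous gene cannot be told apart in these files. Of 11 tested neuronal markers none passed at an adjusted p under 0.05, and their sums were 580 and 644 CPM in Δmetr-1, against 595 and 513 CPM in wild type.

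The myosin heavy chain gene unc-54 had the largest absolute difference among the genes described. It had 10985 and 8690 CPM in Δmetr-1, against 842 and 1002 CPM in wild type, 10.67 times the wild type mean. Its log2 change of 3.41 ± 0.57 (SE, n = 2 per group) had a limma adjusted p of 0.0553. Of the 25 alternative fits, 2 called unc-54, the fit of only the 4 compared libraries and DESeq2. The other 9 listed genes of body wall muscle had log2 changes between -0.18 and 0.49, and their sums were 6733 and 8237 CPM in Δmetr-1, against 6364 and 7314 CPM in wild type. Other muscle genes were thus near their wild type level while unc-54 was not. Over the 12 libraries, the 4 with the most unc-54 reads were also the 4 with the most acdh-1 reads, those of both metr-1 strains on vector. The 3′ sequence of the acdh-1 reporter is not given in the sources used here, and whether reporter reads were counted under unc-54 was not tested.

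Beyond the 13, a further 29 genes were higher at an adjusted p under 0.05. The largest of these after acdh-1 was srh-237, a chemoreceptor family gene, with 26.8 and 27.4 CPM in Δmetr-1, against 2.01 and 1.44 CPM in wild type (log2 change 3.38, limma adjusted p = 0.0205). It lies 936 bp from T05E12.6, which had 172 and 195 CPM in Δmetr-1, against 19.1 and 25.9 CPM in wild type (log2 change 2.98, limma adjusted p = 0.0168). The gene R09H10.7 had 31.02 and 43.8 CPM in Δmetr-1, against 3.82 and 2.08 CPM in wild type, and overlaps R09H10.5, on the opposite strand, by 105 bp. Neighbouring pairs recurred at this threshold, since Y38H6C.23, 422 bp from Y38H6C.21 on the same strand, passed as well (log2 change 3.20). The authors' counter extended genes past their annotated 3′ ends, and whether reads of 1 gene of such a pair were counted under the other was not tested.

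The transporter gene mct-3, of the monocarboxylate transporter family, had 95.3 and 72.8 CPM in Δmetr-1, against 27.8 and 20.9 CPM in wild type (log2 change 1.75, limma adjusted p = 0.0168). The genes F17H10.1 and C50D2.6 had log2 changes of 2.46 and 2.31, with limma adjusted p of 0.0197 and 0.0201. The long noncoding RNA tts-1, known to be abundant in long-lived daf-2 mutants, had 144 and 113 CPM in Δmetr-1, against 23.02 and 29.4 CPM in wild type (log2 change 2.25, limma adjusted p = 0.0205). Together these genes had between 3 and 7 times their wild type mean.

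The 14 genes lower at an adjusted p under 0.05 included, besides cbs-1, several of low level in Δmetr-1. The gene sysm-1 had 4.74 and 1.75 CPM in Δmetr-1, against 31.2 and 26.5 CPM in wild type (log2 change -2.91, limma adjusted p = 0.0151). The gene C27D9.2 had 0.852 and 3.66 CPM in Δmetr-1, against 26.5 and 30.7 CPM in wild type (log2 change -3.33, limma adjusted p = 0.0154). The gene mpz-3 had 6.57 and 5.33 CPM in Δmetr-1, against 25.9 and 23.4 CPM in wild type (log2 change -1.89, limma adjusted p = 0.0154). In these the wild type replicates were close to each other.

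The pud genes, named for proteins that are more abundant in daf-2 mutants, were low and came in pairs of near-identical copies. The gene pud-2.2 had 8.15 and 3.996 CPM in Δmetr-1, against 59.9 and 141 CPM in wild type, and pud-2.1 had almost the same values (log2 change -3.78 for both, limma adjusted p = 0.0151 for both). Their neighbours pud-1.1 and pud-1.2 had log2 changes of -4.13 each, with an adjusted p of 0.133 from limma. Reads between pud-2.1 and pud-2.2, and between pud-1.1 and pud-1.2, are uncertain, so each pair is best counted as 1 signal. The same holds for pqn-90 and pqn-91, with log2 changes of -3.38 and -3.40. The gene T24A6.1 had 12.9 and 24.5 CPM in Δmetr-1, against 144.7 and 318 CPM in wild type, and grl-27 had 9.25 and 20.98 CPM in Δmetr-1, against 151 and 327 CPM in wild type. The genes C32H11.4 (log2 change -4.02) and lipl-2, a lipase gene (log2 change -2.17), also passed.

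**Figure D4:**
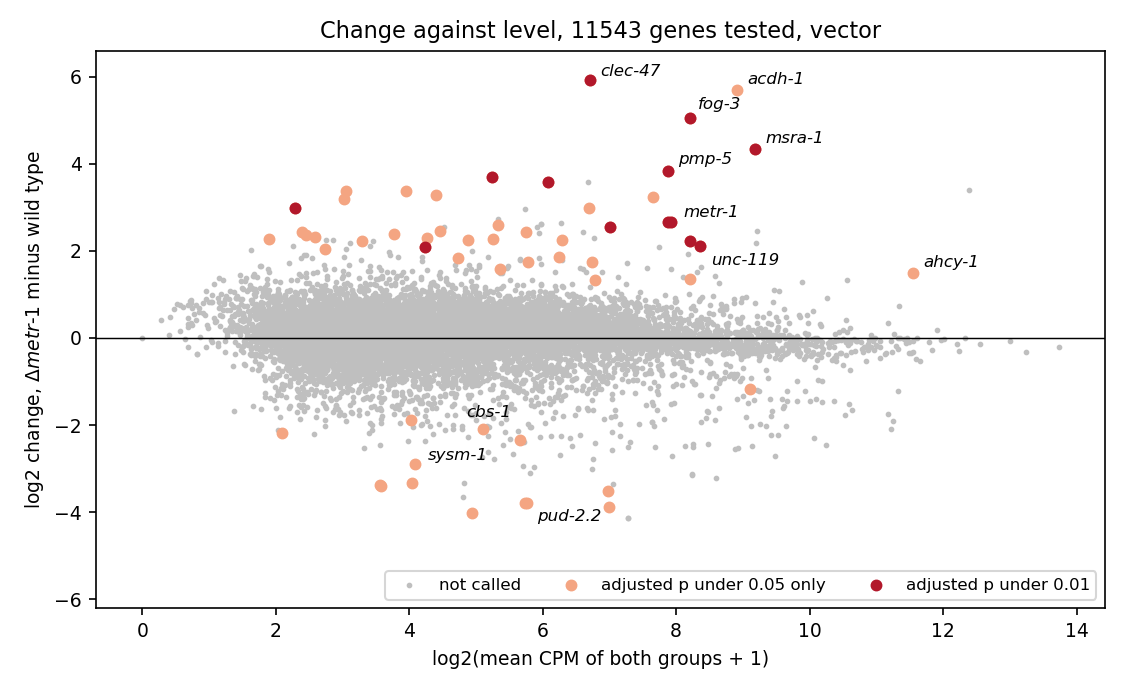
Log2 change, Δmetr-1 minus wild type on vector, against the log2 of the mean level of both groups plus 1, for the 11543 genes tested, with called genes in dark red and genes passing only at an adjusted p under 0.05 in light red. The called genes lie between 2.102 and 5.93 on the log2 scale, and the unlabelled grey point at the far right above 3 is unc-54.

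The called genes lay on 4 of the 6 nuclear chromosomes. Of the 13, 6 lie on chromosome II, where metr-1 is, 4 on V (Y38H6C.21 among them), 2 on I and 1 on III. Of the genes tested, 16.9% lie on II and 18.6% on V. The 6 on chromosome II span 3.83 Mb, from 7101218 to 10931078, a stretch with 604 tested genes. Of the 42 genes higher at an adjusted p under 0.05, 10 lie on II (23.8%) and 14 on V (33.3%), and of the 14 lower, 4 lie on II and 5 on V. These positions are given as a description with no test.

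Several large families had most of their members on 1 side of wild type without a single call. Of all 11543 genes tested, 6812 had log2 changes above 0 and 4731 below. Of 111 tested cuticle collagen genes, 94 had log2 changes below 0, with a median of -1.21, which was -1.80 with Δmetr-1 replicate 1 alone and -0.82 with replicate 2 alone. Of 28 glutathione S-transferase genes, 24 were below 0 with a median of -0.58, which was -0.78 with Δmetr-1 replicate 1 alone and -0.35 with replicate 2 alone. The lowest by p was gst-10, with 6.33 and 13.9 CPM in Δmetr-1, against 45.5 and 41.6 CPM in wild type (log2 change -2.09, limma adjusted p = 0.0513). Of 77 cytosolic ribosomal protein genes, 73 were below 0, with a median of -0.28, which was -0.47 with Δmetr-1 replicate 1 alone and -0.06 with replicate 2 alone. Of 54 histone genes, 49 were above 0 with a median of 0.54, but the median was -0.24 with Δmetr-1 replicate 1 alone and 1.39 with replicate 2 alone. The oocyte, vitellogenin and molting sums differed between these libraries by larger factors, and their part in the family medians was not tested.

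The deletion strain was set beside the vector-fed metr-1(ww52);Δnhr-10 strain, which carries both the ww52 allele and the nhr-10 deletion. In the direct limma test between the strains no gene was called in either direction (0%), and edgeR on recovered reads also called none. At an unadjusted p under 0.05, 589 genes differed (5.10%), and at an adjusted p under 0.05, 2 were higher in Δmetr-1, C31E10.5 and T04D3.8, and 10 lower, among them the Y-box protein gene cey-1 and the mitochondrial complex I gene nuo-1. DESeq2 on recovered reads called 20 higher and 23 lower, and limma without Δmetr-1 vector replicate 2 called 21 higher and 5 lower, so the count of 0 depends on the tool and on that library. The gene cey-1 had 621 and 738 CPM in Δmetr-1, against 1970 and 2260 CPM in the metr-1(ww52);Δnhr-10 strain, and 635 and 628 CPM in wild type. It was thus close to wild type in the deletion strain. Of the 10 lower genes, 5 (cey-1, sdhd-1, rpl-36.A, nuo-1 and rps-9) lie between 11039348 and 11126362 on chromosome II. On the same chromosome metr-1 ends at 10931078. All 5 genes were higher in the metr-1(ww52);Δnhr-10 strain than in both other strains on vector. The genes named from this comparison were picked after their values were seen.

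For the 13 genes called against wild type, the differences between the metr-1 strains ran from -0.78 ± 0.22 for unc-119 to 1.56 ± 0.37 for Y38H6C.21 (log2, SE, n = 2 per group), and none passed (limma adjusted p of 0.338 or more). The difference, Δmetr-1 minus the metr-1(ww52);Δnhr-10 strain, was 1.37 ± 0.59 for clec-47, 0.83 ± 0.42 for fog-3, 0.13 ± 0.31 for msra-1, 0.31 ± 0.33 for pmp-5, -0.28 ± 0.26 for metr-1 and -0.68 ± 0.22 for mthf-1. The same wild type libraries serve both strains' comparisons with wild type. Levels of fog-3 were 594 and 547 CPM in Δmetr-1, 535 and 192 CPM in the metr-1(ww52);Δnhr-10 strain, and 13.5 and 19.2 CPM in wild type. The gene acdh-1 had 941 and 949 CPM in Δmetr-1, 876 and 272 CPM in the metr-1(ww52);Δnhr-10 strain, and 15.4 and 19.5 CPM in wild type. The acdh-1 level was above wild type with nhr-10 intact and with nhr-10 deleted, although replicate 2 of the double mutant was well below the rest. The genes pud-2.2 and gst-10 had 51.1 and 51.0 CPM and 44.1 and 42.0 CPM in the metr-1(ww52);Δnhr-10 strain, above both Δmetr-1 libraries, with differences of -2.94 and -2.07 and adjusted p of 0.162 and 0.172 from limma.

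In Δmetr-1 animals on nhr-114 RNAi most of the genes called on vector were near their wild type level, and DH11.2, C09D4.1, clec-47 and unc-119 were above it. The gene clec-47 had 5.15 and 12.05 CPM in Δmetr-1 on nhr-114 RNAi, against 168 and 241 CPM in Δmetr-1 on vector. The gene msra-1 had 47.1 and 47.1 CPM in Δmetr-1 on nhr-114 RNAi, against the 1005 and 1203 CPM in Δmetr-1 on vector. The gene metr-1 had 30.3 and 45.7 CPM in Δmetr-1 on nhr-114 RNAi, below the 59.8 and 69.4 CPM of wild type on vector. The gene cbs-1 had 84.7 and 57.7 CPM in Δmetr-1 on nhr-114 RNAi, against 11.7 and 11.99 CPM in Δmetr-1 on vector. The gene C09D4.1 had 21.4 and 20.3 CPM in Δmetr-1 on nhr-114 RNAi, against 28.6 and 30.7 CPM in Δmetr-1 on vector. Likewise unc-119 had 556 and 583 CPM in Δmetr-1 on nhr-114 RNAi, against 487 and 578 CPM in Δmetr-1 on vector. The gene mct-3 had 74.1 and 68.5 CPM in Δmetr-1 on nhr-114 RNAi, against 95.3 and 72.8 CPM in Δmetr-1 on vector. The desaturase gene fat-2 and the RNA tts-1 were higher still on nhr-114 RNAi, at 1482 and 1988 CPM and at 701 and 1450 CPM. These RNAi values are set beside the vector values with no test here.

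**Figure D5:**
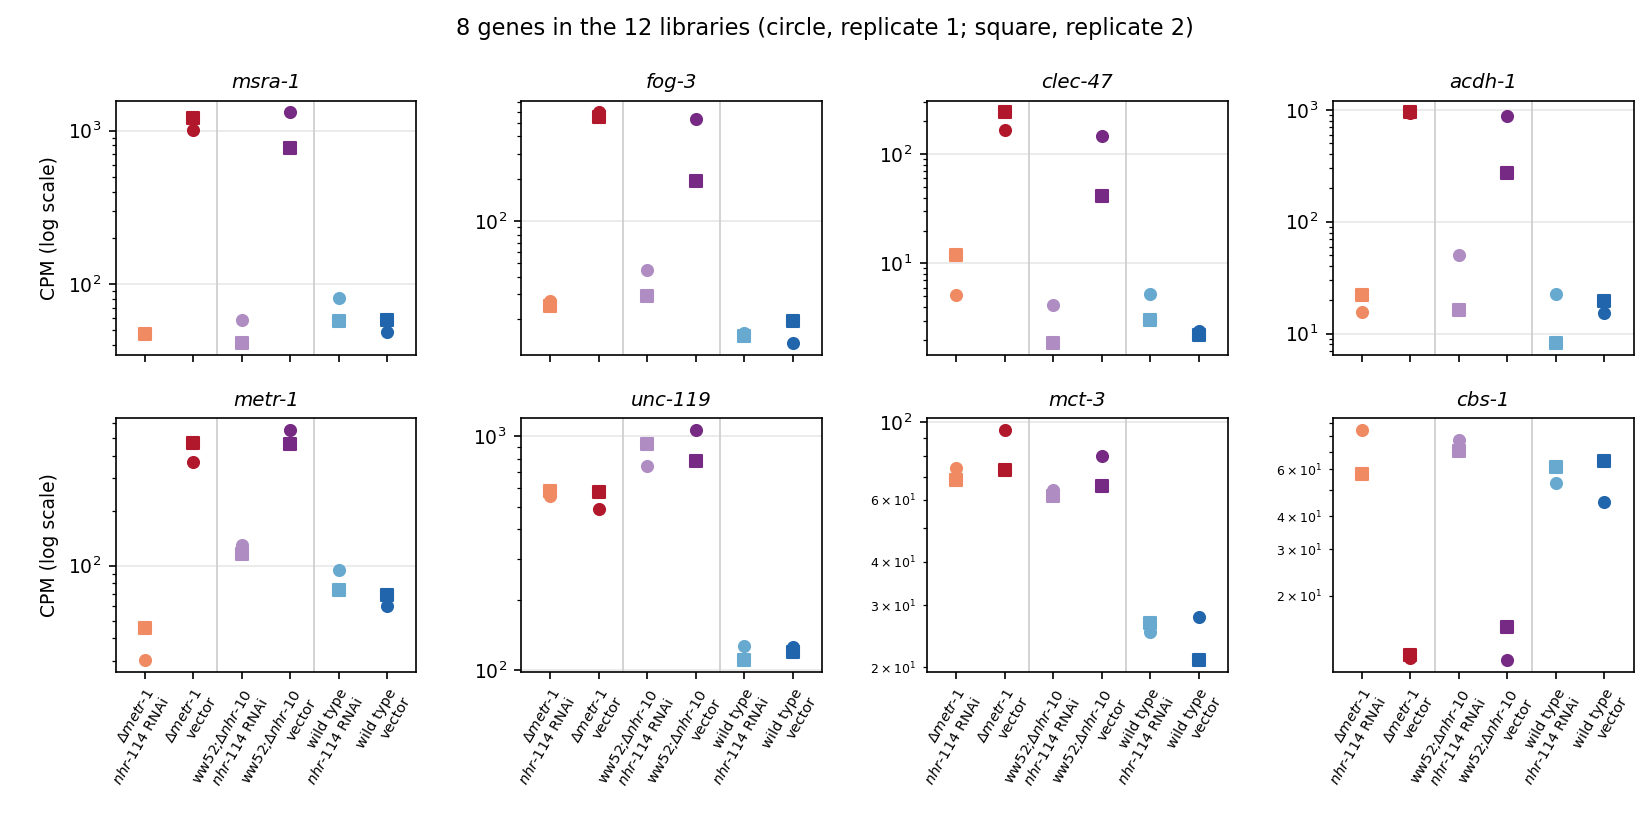
Levels of 8 genes in CPM (log axes) in the 12 libraries of the experiment, by strain and bacterial clone, with circles for replicate 1 and squares for replicate 2. Δmetr-1 on vector lies far above wild type for msra-1, fog-3, clec-47, acdh-1 and metr-1, and on nhr-114 RNAi all 5 are far below their Δmetr-1 vector level, whereas unc-119 and mct-3 have similar levels in Δmetr-1 on both clones and cbs-1 is low only in the metr-1 strains on vector.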

How the data were processed

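The values analysed were those of the 12 libraries of the RNAi experiment (6 groups of 2). Per the study's methods, libraries were made with CEL-seq2, reads were trimmed with Trimmomatic 0.32, aligned with STAR, and assigned to transcript 3′ ends with ESAT and a WormBase gene set without pseudogenes. The deposited table is named TPM, but the values the authors deposited are CPM with no length term: each library sums to 1000000, and 100% of values were whole multiples of 1 step per library (tolerance 0.02), from which reads were recovered. CPM of different genes reflect 3′ reads rather than transcript length. Whether reads or molecular identifiers were scaled, and whether strand was used, is not stated. The first experiment of the series was not used here.

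Values were tested as log2(CPM + 1) with limma 3.58.1 (R 4.3.3; trend and robust settings, two-sided, 1 mean per group over the 12 libraries, 2 per group) on genes that reached 5 CPM in 2 or more libraries. This scale understates changes of low genes. Benjamini-Hochberg adjustment covered all 11543 genes, and calls needed an adjusted p below 0.01 and a change of more than 1.5 times, as in the study, with 0.05 as a second threshold. On simulated data the fit was tested before use. Alternatives were edgeR 4.0.16 and DESeq2 1.42.0 on recovered reads, other pseudocounts, filters, scalings, sample sets, a replicate block, stage covariates and leaving out each library.

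The comparison, the gene lists and the rule for named genes were chosen with earlier results of these data known. Named were the members of the metabolic lists, every called gene, up to 10 further genes in each direction at an adjusted p under 0.05 with no overlap and at least 20 CPM in the higher group, and the 2 to 4 members of other lists with the smallest p. The genes lpin-1, lys-2, lipl-2, pqn-90, pud-1.1, pud-1.2 and Y38H6C.23 were added after their values were seen. Gene positions are from Ensembl release 115 (WBcel235), in which 39258 of 39341 genes were found.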

Additional observations from a re-analysis of the deposited data

How the results depend on the processing

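In the main fit 13 genes were higher and 0 lower in Δmetr-1 than wild type on vector. The higher count was 5 with only the 4 compared libraries, 2 with only vector libraries and 0 without the RNAi libraries numbered 1. With only the 4 compared libraries, 3 of the 13 were kept (msra-1, fog-3 and clec-47), and acdh-1 and unc-54 were gained. The vector libraries alone kept msra-1 and pmp-5. The higher count was 53 with DESeq2, 37 with the oocyte mean and 43 with the molting mean as covariate. The lower count was 2 with a pseudocount of 5 CPM, 2 with no filter and 1 with median-of-ratios scaling. It was 36 with DESeq2, 16 with the oocyte mean and 44 with the molting mean. Higher genes made up 92.9% of the calls with median-of-ratios scaling and 59.6% with DESeq2. They made up 69.8% with the oocyte mean, 49.4% with the molting mean, 88.2% with a pseudocount of 5 CPM and 86.7% with no filter. Leaving out 1 library at a time gave 0 to 13 higher and 0 to 0 lower. DESeq2 and both covariate fits kept all 13 genes, edgeR kept 10 among 11, and the cause of the differing counts was not tested. With a replicate block the counts were 18 higher and 1 lower, 12 of the 13 among them. Deviations of same-numbered libraries correlated at 0.526 between Δmetr-1 and wild type on vector but between -0.467 and 0.681 over all pairs of groups, so the numbers were not taken as pairing samples. Between Δmetr-1 and the metr-1(ww52);Δnhr-10 strain the counts of 0 became 20 higher and 23 lower with DESeq2, and 0 to 21 higher and 0 to 5 lower without 1 library. No printed log2 change of a single gene against wild type turned its direction under any alternative run; differences from the metr-1(ww52);Δnhr-10 strain were not rerun for single genes. With 2 libraries per group and 6 residual degrees of freedom, each gene had 1 estimate of spread shared by all 6 groups. Changes as large as those of fat-5 and nhr-114 did not pass, and both genes differed widely between replicates on nhr-114 RNAi. In Δmetr-1 on nhr-114 RNAi, fat-5 had 376 and 1417 CPM and nhr-114 had 193 and 7.94 CPM.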
